A study of Mus musculus with 2 samples.

Results

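The miR-669 and miR-297 families are groups of closely related mouse miRNAs. The members were every miRNA of the array whose name is miR-669 or miR-297 followed by a letter, on either arm of the precursor, which gave 26 of the 1881 mouse miRNAs measured. They comprised 23 miR-669 and 3 miR-297 miRNAs, of which 10 were named as the 5p arm, 12 as the 3p arm and 4 by no arm (miR-669g, miR-669i, miR-669j and miR-669n). The families had been chosen because of their signals on these same arrays, so the differences between the arrays are given as a description of the members, with no test.

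Exosomes, small vesicles that cells release into their medium, were collected from the supernatants of cultured cells by differential ultracentrifugation, and their total RNA, carrying the dye Cy3, was hybridized to Agilent mouse miRNA arrays. KPC-exosomes came from KPC cells, a pancreatic cancer line grown out of tumour tissue of KrasLSL-G12D/+, Trp53LSL-R172H/+, Pdx1-Cre mice, in which Cre under the Pdx1 promoter, active in pancreatic progenitors, switches on both mutant alleles. MPDC-exosomes, the control, came from MPDC cells, a purchased murine pancreatic ductal epithelial line for which no mutation or treatment is given. Each group had 1 array, so no difference has a replicate check, and precision is limited by this number of arrays. Whether a line was 1 clone, and whether preparations were pooled, was not given in the sources used here. KPC cells were maintained in RPMI-1640 with 20% fetal bovine serum and MPDC cells in DMEM with 10%, and exosome-free serum was used while the supernatants were conditioned. Line, mutations, medium and serum therefore all differed with the group and cannot be told apart.

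Most genes of these families lie together within Sfmbt2, a Polycomb group gene on mouse chromosome 2 that is expressed from the paternal allele in extraembryonic tissue, and they are interleaved there with the genes of the related miR-466 and miR-467 families. The cluster is known from mouse embryonic stem cells and the placenta. A miRNA pairs with its target mRNAs mainly through its seed, the bases 2 to 8 from its 5′ end, and each precursor hairpin can yield a mature miRNA from its 5p and from its 3p arm.

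The array measured each member with 1 to 4 DNA probes of 15 to 23 bases. A probe is complementary to the miRNA, so that its last bases face the 5′ end of the miRNA. The longest probes of the 5p members are shown because 8 of the 10 share the run ATGCACA in them, which is in capitals, and 6 of the 8 are given.

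miR-297b-5p: acatgttcATGCACAcata

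miR-297c-5p: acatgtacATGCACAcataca

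miR-669a-5p: agacatgaacATGCACAc

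miR-669b-5p: acATGCACAtgcacaca

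miR-669l-5p: acatatacATGCACAcac

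miR-669o-5p: acataaacATGCACAcac

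The probes of 11 of the 12 3p members, and of miR-669i, held an alternation of T and G. The probes of the 3 members of this kind that were detected on both arrays, and of 3 that were detected on 1 array, are shown with the repeat that holds TGTGT in capitals.

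miR-669c-3p: tttactTGTGTGTGTGTg

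miR-669f-3p: atacgTGTGTGTGTatgt

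miR-669p-3p: atacgTGTGTGTGTGTatg

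miR-297a-3p: tatgggtaTGTGTGTatgt

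miR-669h-3p: tgtgcaTGTGTGTatatgc

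miR-669i: gtatgcaTGTGTGTatatgc

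Searched on the strand of the probe over the longest probe of each miRNA, ATGCACA was present in 8 of 26 members, in 4 of 35 miR-466 and miR-467 miRNAs and in 1 of 1820 others, which is 0.691% of all 1881. TGTGT was present in 12 of 26 members, 17 of 35 miR-466 and miR-467 miRNAs and 19 of 1820 others, or 2.55% of all. The longer repeat GTGTGTGT, which overlaps TGTGT, was present in 5 members, 11 miR-466 and miR-467 miRNAs and 0 others, or 0.851% of all. These runs are a property of the names the members were chosen by and describe how alike the probes are.

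RefSeq gave a mature sequence for 1 of the 26 members, miR-669n, which is shown with its seed in capitals.

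miR-669n: aUUUGUGUguggaugugugu

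It lies at chr3:115979905-115979924 on the plus strand of GRCm38.p6, within the gene Mir669n (chr3:115979902-115979955). No other mature miRNA of the RefSeq table had the seed UUUGUGU. That table held 1608 of the 1881 miRNAs of the array and none of the other members, whose seeds were therefore not compared. Its longest probe was the reverse complement of bases 3 to 20 of this sequence, so the array did not read its first 2 bases. The array files placed that probe at chr2:10430951-10430967 on mm9, beside the probe of miR-669c-3p at chr2:10430991-10431007, while RefSeq placed the gene on chromosome 3.

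The members were found in MPDC-exosomes and were low or not detected in KPC-exosomes. A probe was taken as detected when its total signal, in arbitrary intensity units after background subtraction, exceeded 3 times the error that the scanner software gave for it, and detected probes were added up to the signal of the miRNA. By this rule 23 of the 26 members were detected in MPDC-exosomes and 4 in KPC-exosomes. Of these, 4 were detected on both arrays (38.6% of all 1881 miRNAs were), 19 in MPDC-exosomes only (16.2% of all), 0 in KPC-exosomes only (2.45% of all) and 3 on neither array (42.7% of all). Whether fewer of the vesicles carried these miRNAs or each vesicle carried less cannot be told apart in such RNA pools. The members had been chosen on these same signals, so nothing is read from the comparison with all miRNAs.

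**Figure D1:**
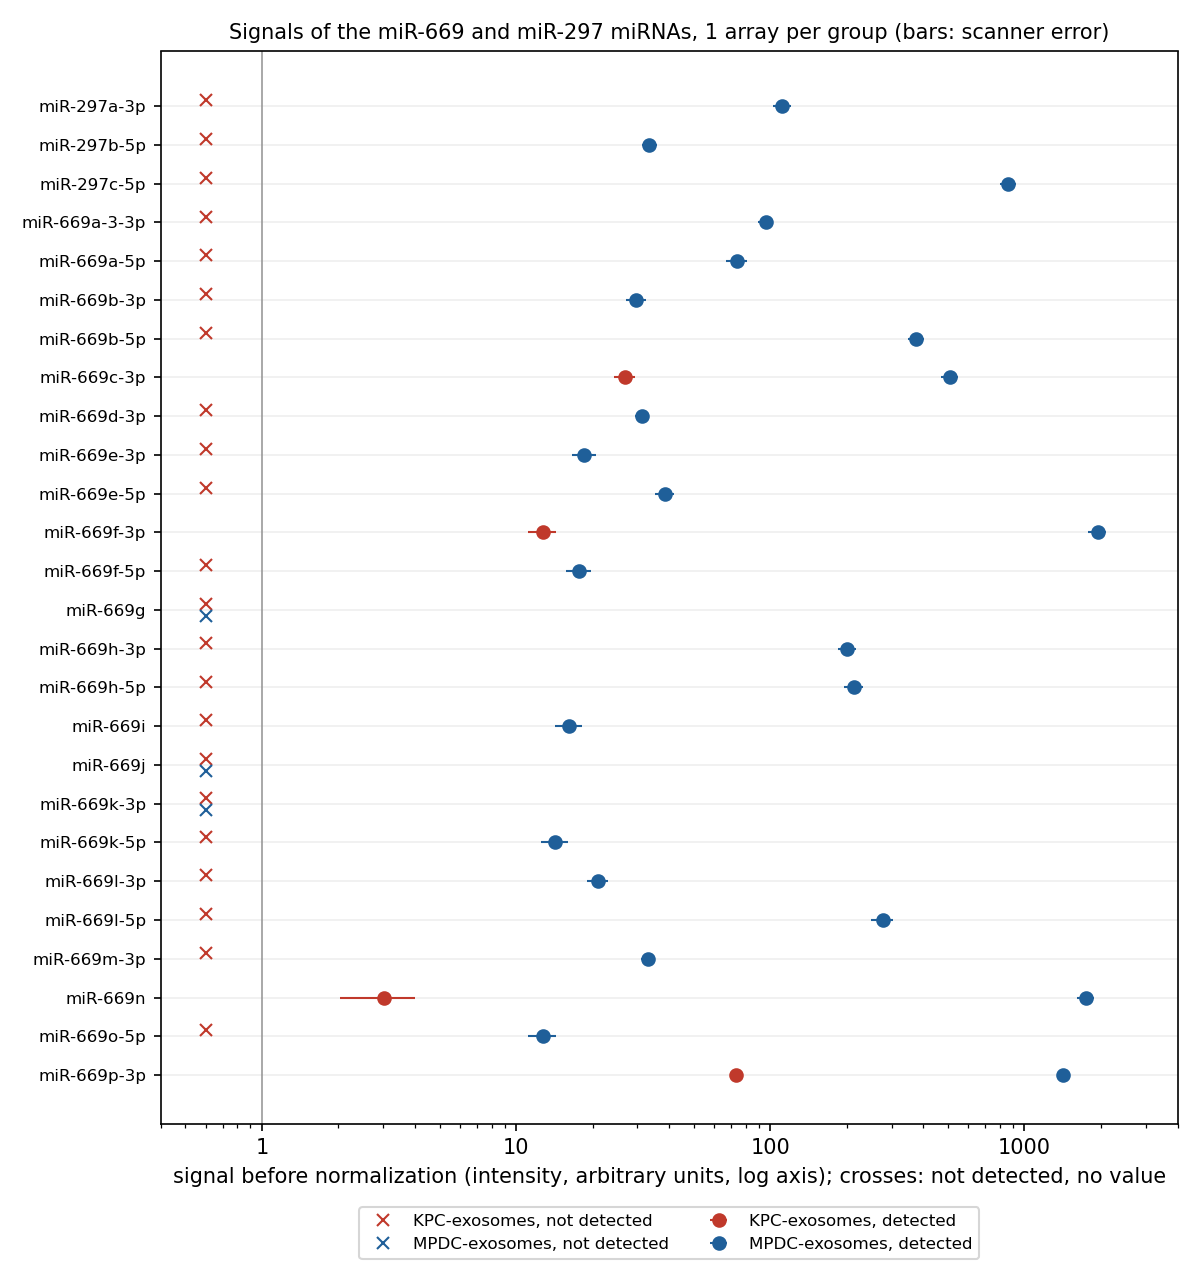
Signal of each of the 26 members before normalization (x axis, arbitrary intensity units, log scale) in KPC-exosomes (red) and MPDC-exosomes (blue), 1 array each, with the scanner error of each value as a bar and a cross at the left margin where a member was not detected. Blue points lie between 12.7 and 1938 for 23 members, and red points appear for 4 members, between 3.01 and 73.2.

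miR-669c-3p had a signal of 26.8 ± 2.48 in KPC-exosomes against 507 ± 38.5 (scanner error) in MPDC-exosomes. For miR-669f-3p the KPC-exosome signal was 12.8 ± 1.61 and the MPDC-exosome signal 1938 ± 154. For miR-669p-3p these signals were 73.2 ± 3.78 and 1413 ± 70.8. In all 3 the MPDC-exosome signal was the higher, by many times the scanner error, which covers these arrays only and not the variation between cultures. The gene of miR-669n lies outside the Sfmbt2 cluster in RefSeq. However, the array files placed its probes on chromosome 2, beside those of miR-669c-3p. From which of these sites its signal came was not tested. miR-669n had 3.01 ± 0.977 in KPC-exosomes and 1745 ± 129 in MPDC-exosomes. Its detection in KPC-exosomes was marginal, since 1 of its 2 probes stood at 3.08 errors and the other at 2.91 errors.

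Each difference is the log2 signal in KPC-exosomes less that in MPDC-exosomes, after quantile normalization, which gives both arrays the same distribution of signals, and without normalization. miR-669f-3p differed by -5.72 after normalization and by -7.25 without it, and fell far below the next pair. miR-669p-3p differed by -2.65 and -4.27, and miR-669c-3p by -2.46 and -4.24. The scanner error of these differences was 0.21 for miR-669f-3p, 0.10 for miR-669p-3p and 0.17 for miR-669c-3p, so that miR-669p-3p and miR-669c-3p differed from each other by less than their scanner errors combined without normalization. Over the 726 miRNAs with a signal on both arrays the difference had a median of 0.53 after normalization and -1.37 without it. Relative to that median the normalized differences were -6.25 for miR-669f-3p, -3.18 for miR-669p-3p and -2.99 for miR-669c-3p. Of the 726, 10 had a more negative normalized difference than miR-669f-3p, 47 than miR-669p-3p and 58 than miR-669c-3p. For miR-669n the same subtraction gave -7.31 and -9.18. It set 1 marginal probe in KPC-exosomes against 2 probes in MPDC-exosomes, so an estimate over both probes is used for miR-669n below.

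The probes of 1 member gave like differences in miR-669p-3p and less so in the others. The 4 probes of miR-669p-3p differed by -4.36 to -4.21 without normalization. The 2 probes of miR-669c-3p, of 17 and 18 bases, differed by -4.45 and -4.16. The 2 probes of miR-669f-3p, also of 17 and 18 bases, differed by -6.61 and -7.53. In miR-669f-3p the gap between its probes was larger than the scanner error of each, 0.34 and 0.26.

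The single spots show where each signal stood above background. On the scale of the processed signal per spot, 400 negative control spots had a median of 1.21 in KPC-exosomes and -0.27 in MPDC-exosomes, with 95% of them below 5.18 and 3.62. The ranges that follow leave out spots that the software marked as outliers. The spots of miR-669p-3p ran from 108 to 146 in KPC-exosomes and from 2382 to 2745 in MPDC-exosomes, with 30 of 30 marked well above background by the scanner software on both arrays. For miR-669c-3p, the spots ran from 21.5 to 80.1 in KPC-exosomes and from 522 to 1376 in MPDC-exosomes, again with 30 of 30 well above background. In both members the spots of the KPC-exosome array and of the MPDC-exosome array did not overlap, and neither overlapped the controls without an outlier flag. With flagged spots kept, the highest control spot stood at 43.0 in KPC-exosomes and 26.8 in MPDC-exosomes. The value of 43.0 lies within the KPC-exosome range of miR-669c-3p. For miR-669f-3p, 25 of 30 spots in KPC-exosomes were well above background, with a range of 12.4 to 32.3 against 1612 to 5655 in MPDC-exosomes. For miR-669n, 0 of 30 spots in KPC-exosomes were well above background and they ran from 3.96 to 14.0, which overlaps the highest negative control spots at up to 7.88, whereas 30 of 30 spots in MPDC-exosomes were, at 2053 to 4279. With 3 errors summed over both probes as its KPC-exosome signal (5.85), miR-669n was 97.7-fold lower there after normalization and 298-fold lower without it. Its measured signal over both probes was also 5.85. These values are therefore estimates near the measured ratio and not lower bounds. They correspond to log2 differences of -6.61 and -8.22.

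**Figure D2:**
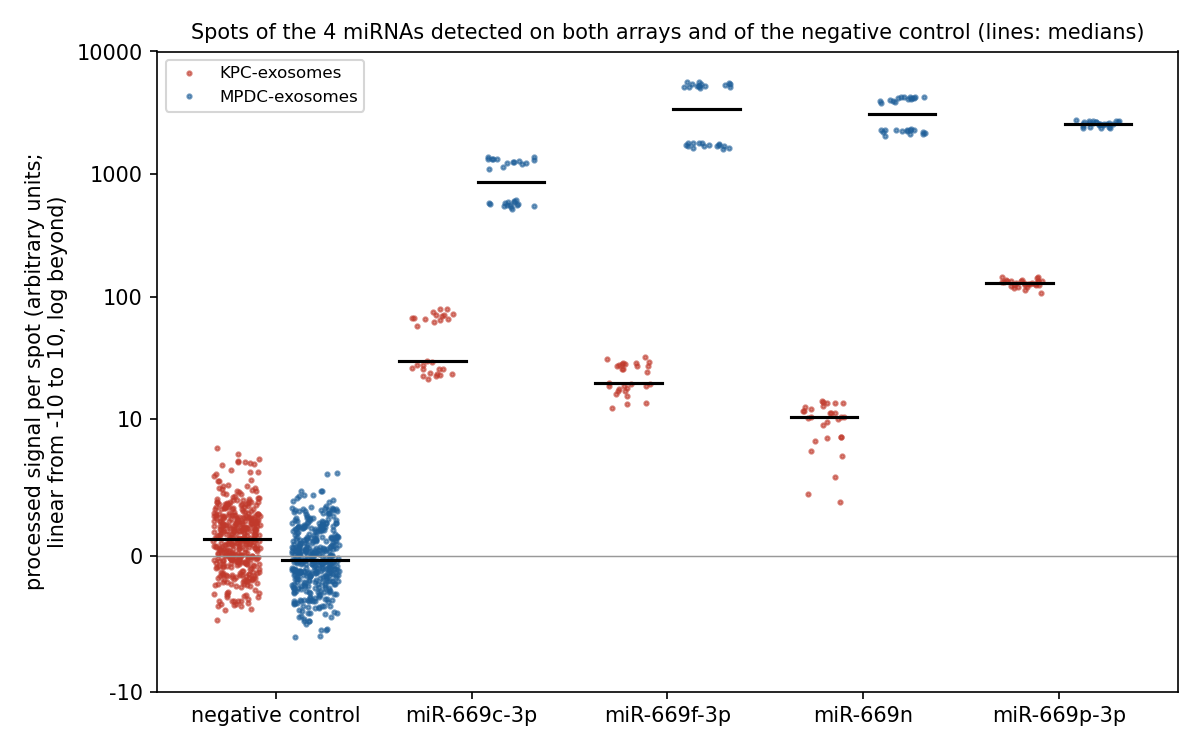
Processed signal of each spot without an outlier flag (y axis, arbitrary units, linear between -10 and 10 and logarithmic beyond) for the negative control and the 4 members detected on both arrays, KPC-exosomes in red and MPDC-exosomes in blue, with black lines at the medians. The KPC-exosome spots of miR-669n have a median of 10.5 and reach down into the negative control spots, while those of miR-669p-3p have a median of 130.0.

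The other 19 detected members had a signal in MPDC-exosomes only, so for these the difference is a bound. The limit for a member was 3 scanner errors on the KPC-exosome array, summed over the probes that detected it in MPDC-exosomes, since a member could stay undetected up to that signal. These limits ran from 2.78 to 5.58. Without normalization all 19 members were at least 2-fold lower in KPC-exosomes, by at least 3.33-fold to at least 155.1-fold. After normalization the bound reached 2-fold for 8 of the 19, was smaller for 7, at 1.07-fold or more, and could not be set for 4, with 44.7-fold as the highest.

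All 10 members of the 5p arm were in this group. miR-297c-5p had a signal of 865 ± 61.6 in MPDC-exosomes and was at least 44.7-fold lower in KPC-exosomes after normalization. miR-669b-5p had a signal of 374.6 ± 27.6 and a bound of 18.3-fold, and miR-669l-5p, with its single probe, a signal of 277 ± 27.8 and a bound of 13.7-fold. miR-669h-5p had a signal of 213 ± 17.7 and a bound of 11.1-fold. These 4 had the largest normalized bounds among the 5p members. miR-669a-5p, whose name covers 12 genes of the cluster, had a signal of 74.1 ± 6.98 and a bound of 3.62-fold. The signals of miR-669e-5p and miR-297b-5p were 38.4 ± 3.23 and 33.5 ± 2.31, and their bounds of 1.94-fold and 1.72-fold lay just short of 2-fold. miR-669f-5p had a signal of 17.7 ± 2.04 and a bound of 1.24-fold. For miR-669k-5p at 14.2 ± 1.74 and miR-669o-5p at 12.7 ± 1.62 no bound could be set after normalization, and without it they were at least 5.11-fold and 4.57-fold lower.

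Of the 3p arm, 8 members were detected in MPDC-exosomes only. miR-669h-3p had a signal of 201 ± 16.8 there and a normalized bound of 10.4-fold. The signal of miR-297a-3p was 112 ± 9.14 with a bound of 6.74-fold, and that of miR-669a-3-3p 95.9 ± 6.19 with a bound of 4.54-fold. These 3 were the 3p members of this group whose bound reached 2-fold after normalization. miR-669m-3p at 33.1 ± 2.09, miR-669d-3p at 31.3 ± 1.94 and miR-669b-3p at 29.7 ± 2.64 had bounds of 1.68-fold, 1.60-fold and 1.51-fold. For miR-669l-3p, at 21.0 ± 2.07, and miR-669e-3p, at 18.5 ± 1.98, no bound could be set after normalization, and without it they were at least 3.77-fold and 3.33-fold lower. miR-669i, named by no arm, had a signal of 16.2 ± 1.90 and a normalized bound of 1.07-fold. Signals of different probes are set side by side here and give no order of abundance between miRNAs.

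**Figure D3:**
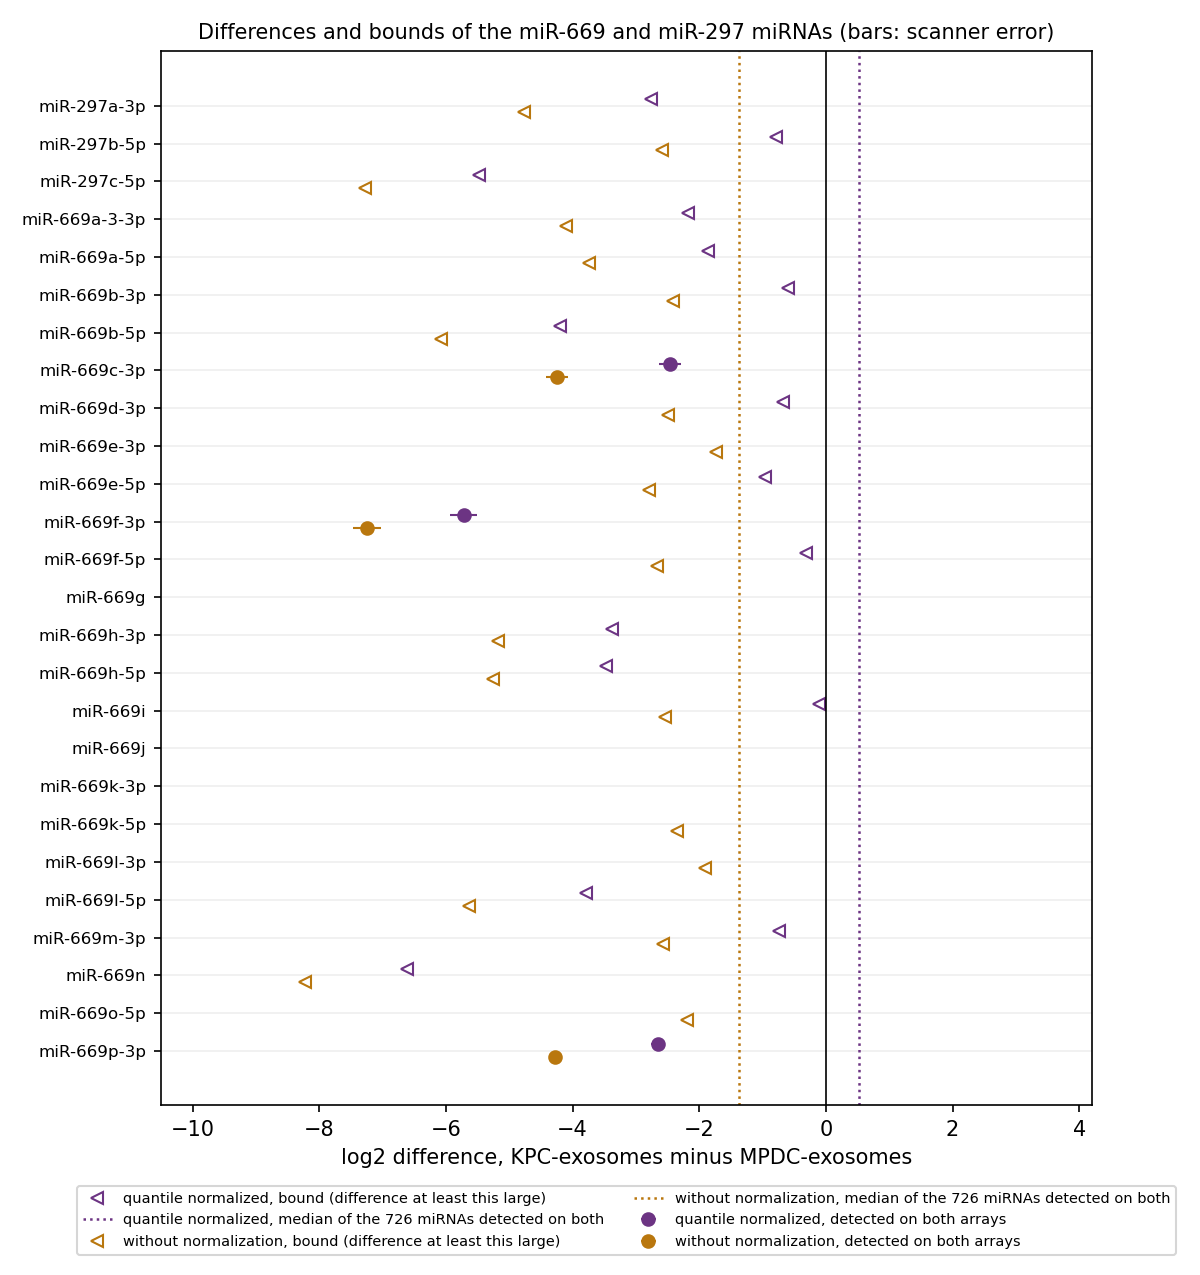
log2 difference of each member, KPC-exosomes minus MPDC-exosomes (x axis), after quantile normalization (purple) and without normalization (orange). Filled points with scanner error bars are miR-669c-3p, miR-669f-3p and miR-669p-3p, and open triangles are bounds. miR-669n is also drawn as a triangle, although its value is an estimate. Dotted lines mark the medians (0.53 and -1.37) of the 726 miRNAs with a signal on both arrays. Every point and triangle lies left of 0, and each unnormalized value lies left of the normalized value of the same member where both could be set.

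By the filter of the study, detection on at least 1 array and a difference of at least 2-fold with undetected signals set to a floor of 0.1, 23 members were lower in KPC-exosomes and 0 were higher. Over all 1881 miRNAs 24.5% were lower and 18% higher by this filter. Without normalization the filter gave 23 members lower (38.9% of all) and 0 higher (6.38% of all). With the bounds at 3 errors in place of the floor, 12 members were at least 2-fold lower after normalization (12.4% of all miRNAs were) and 0 were higher (18% of all). Without normalization 23 were at least 2-fold lower with these bounds (33.7% of all) and 0 higher (5.26% of all). When the lowest signal detected anywhere on the KPC-exosome array, 1.41, was the limit instead, the normalized count was 18 (14.1% of all), but that limit lay below 3 errors of all 19 members. The median difference with bounds at 3 errors was -2.46 over the 19 members with a value, against 0.38 over 882 of all miRNAs, and -3.73 over 23 members without normalization, against -1.35 over 1072 of all. Scaled by the 4 spike-in controls detected on both arrays, it was -3.76. The members had entered through this contrast, so these counts and medians describe them and support nothing further.

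The 22 members not detected in KPC-exosomes were close to 0 there rather than just under the threshold. The sums over all their probes ran from -1.82 to 0.147, and 18 of the 22 were negative. Of the 64 probes of the members, 9 were detected in KPC-exosomes and 52 in MPDC-exosomes. Apart from the second probe of miR-669n, none of the undetected KPC-exosome probes exceeded 0.353 of its scanner error, so a threshold of 1 error would add no member. In MPDC-exosomes the longest probe was detected for all 23 detected members, with all probes detected for 18 of them and some for 5.

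miR-669g, miR-669j and miR-669k-3p were detected on neither array. In MPDC-exosomes the better probe of miR-669k-3p came close, at 2.76 ± 1.03, or 2.67 errors. The probes of miR-669g and miR-669j stayed below 1 error on both arrays. Their genes, Mir669k, Mir669g and Mir669j, lie within 2.73 kb at 105 to 108 kb from the start of Sfmbt2. However, Mir467a-1, Mir466b-8 and Mir669a-1 lie between Mir669k and Mir669g, and the 5p arm of Mir669k was detected in MPDC-exosomes.

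Both arms of 7 precursors were on the array, by the names of their genes. For Mir669b, Mir669e, Mir669h and Mir669l both arms were detected in MPDC-exosomes and neither in KPC-exosomes. The array files also placed the 5p probes of Mir669b and Mir669l at other sites on chromosome 2. Their 5p signals therefore cannot be assigned to these precursors alone. Both arms were likewise detected in MPDC-exosomes only for Mir669a-3, whose 3p arm is miR-669a-3-3p at 95.9. Its 5p arm, miR-669a-5p at 74.1, is by name also that of the other Mir669a genes. The array files placed the longest probe of miR-669a-5p at chr2:10410763-10410780 and chr2:10418144-10418161 on mm9. Beside these sites lay those of the longest miR-669p-3p probe, at chr2:10410799-10410817 and chr2:10418180-10418198. This 5p signal therefore cannot be assigned to Mir669a-3, or to the Mir669a genes alone. For Mir669f both arms were detected in MPDC-exosomes, and in KPC-exosomes only the 3p arm, at 12.8. For Mir669k the 5p arm alone was detected, in MPDC-exosomes.

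In RefSeq on GRCm38.p6, Sfmbt2 spans chr2:10370440-10595253 on the plus strand. Of 36 genes named Mir669 or Mir297, 34 lie within it, over 51.1 kb that begin 96.8 kb from its start. The other 2 are Mir669n on chromosome 3 and Mir297-1 on chromosome 7. By name, 21 members matched 1 gene and 5 matched several, and a signal of the latter cannot be assigned to 1 gene. A match by name does not make a probe specific. The array files placed the miR-669l-5p probe at chr2:10390015-10390032, chr2:10390620-10390637 and chr2:10393289-10393306 on mm9, and that of miR-669b-5p at several sites. Among the members detected on both arrays, miR-669f-3p comes from the first gene of the stretch, miR-669p-3p matched 2 genes at 119 and 126 kb, and miR-669c-3p comes from a gene at 139 kb. Members detected in MPDC-exosomes only came from genes at both ends of the stretch, from Mir669f at 96.8 kb to Mir669h at 147.7 kb.

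**Figure D4:**
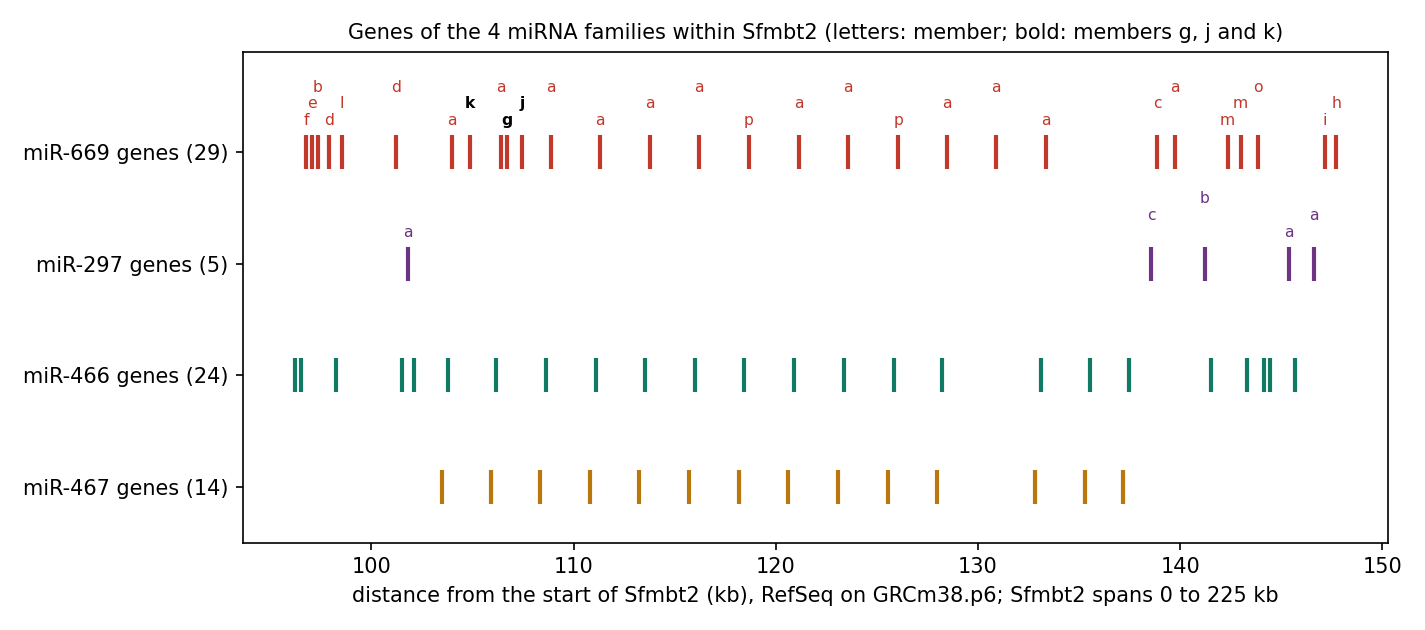
Genes of the miR-669, miR-297, miR-466 and miR-467 families within Sfmbt2, each as a tick at its distance from the start of Sfmbt2 (x axis, kb, RefSeq on GRCm38.p6), with the letter of the member above the miR-669 and miR-297 genes and g, j and k in bold black. The 34 miR-669 and miR-297 genes lie over 51.1 kb, and g, j and k lie at 105 to 108 kb, among other genes of the families.

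Several members cannot be separated with certainty by their probes. The longest probes of 17 members shared a run of at least 12 bases with that of another member and 13 with that of a miR-466 or miR-467 miRNA, whereas 0 shared such a run with any other miRNA of the array (the longest was 10). The probes of miR-669d-3p and miR-669l-3p shared 20 bases, at signals of 31.3 and 21.0 in MPDC-exosomes. The probes of miR-669l-5p and miR-669o-5p differed by T6A, counted from 1 at the 5′ end of the probe, at signals of 277 and 12.7. Those of miR-669h-5p and miR-669k-5p differed by T5A and C17A, at signals of 213 and 14.2. Near-identical probes thus stood at unequal signals in these latter pairs. The array files also placed the 17-base probe of miR-669b-5p at several sites of mm9, on chromosomes 2, 7 and 10. How much of a signal came from a related miRNA was not tested.

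The related miR-466 and miR-467 families were compared as the parts of the array most like the members. Their genes do not all lie in the cluster. In RefSeq, Mir466i lies on chromosome 13, Mir467f on chromosome 11 and Mir466q on chromosome 3, and others also lie outside Sfmbt2. Of 35 miR-466 and miR-467 miRNAs, 7 were detected on both arrays, 22 in MPDC-exosomes only, 0 in KPC-exosomes only and 6 on neither. With bounds at 3 errors, 21 of them were at least 2-fold lower in KPC-exosomes after normalization and 0 higher, with a median of -2.67 over 23 miRNAs against -2.46 for the members. miR-467a-3p, miR-466b-3p and miR-467b-5p had signals of 6519, 3711 and 2145 in MPDC-exosomes and were not detected in KPC-exosomes. miR-466i-5p, with 134 in KPC-exosomes against 346 in MPDC-exosomes, differed by 0.43 after normalization and -1.37 without it, close to the median of all miRNAs, which no miR-669 member detected on both arrays was. miR-466h-3p and miR-467f had 114 and 99.6 in KPC-exosomes and differed by -2.23 and -2.63 after normalization. Whether the families differed could not be tested with 1 array per group.

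Of the 19 miRNAs outside these families whose longest probe holds TGTGT, 7 were detected on at least 1 array. With bounds at 3 errors, 1 of them was at least 2-fold lower in KPC-exosomes after normalization and 1 higher, and without normalization 4 were lower and 1 higher. miR-6378 had signals of 96.6 and 1723, in this order of the arrays, a normalized difference of -2.65, the same to 2 decimals as that of miR-669p-3p. miR-574-3p had 23.2 and 151, a normalized difference of -0.79, and miR-1946a was detected in KPC-exosomes only, at 7.35.

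**Figure D5:**
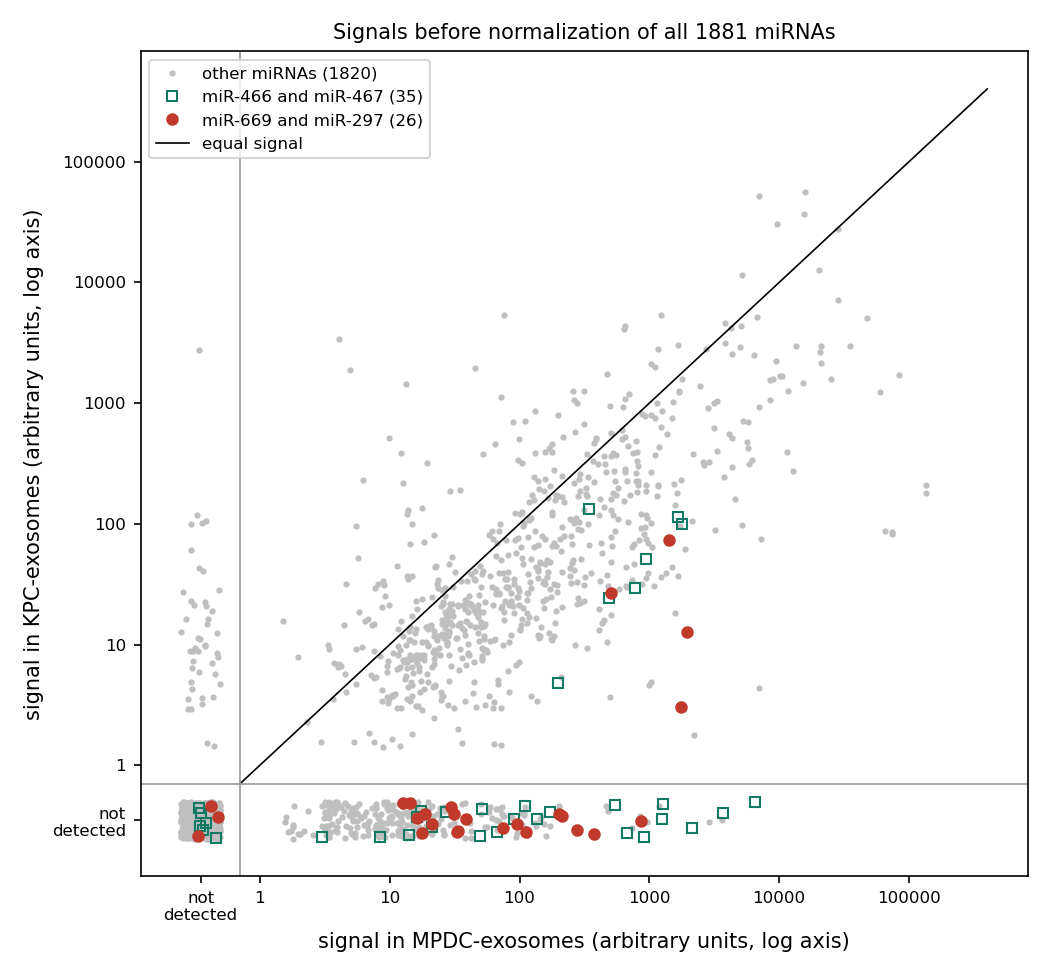
Signal before normalization of all 1881 miRNAs in MPDC-exosomes (x axis) and KPC-exosomes (y axis), arbitrary intensity units on log axes, with miRNAs not detected on an array spread at random within a strip at its margin. The 26 members (red) and 35 miR-466 and miR-467 miRNAs (green squares) lie below the line of equal signal wherever they were detected. In the lower strip lie 22 members, 19 of which were detected in MPDC-exosomes.

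Over the whole array, 772 miRNAs were detected in KPC-exosomes and 1031 in MPDC-exosomes, and 305 of those 1031 (29.6%) were not detected in KPC-exosomes. The cell type lists describe both arrays, and what the lines were was not tested. Epithelial miRNAs were the 3p arms of the miR-200 family with miR-203-3p and miR-205-5p. In MPDC-exosomes 7 of 7 were detected, at 18.1 to 991 and 1781 in sum. In KPC-exosomes 5 of them were detected, at 3.38 to 42.8 and 98.8 in sum. With bounds at 3 errors, 4 of the 7 were at least 2-fold lower in KPC-exosomes after normalization and 0 higher. Without normalization 7 were lower. After normalization miR-141-3p differed by -0.39 and miR-429-3p by -0.66, and no bound could be set for miR-203-3p. Arms outside this list went both ways before normalization. miR-200a-5p was higher in KPC-exosomes, at 99.8 against 14.8, and miR-200b-5p lower, at 12.3 against 25.1. miR-141-5p was detected in MPDC-exosomes only, at 1.58. Of 5 pancreas miRNAs, miR-148a-3p was detected in MPDC-exosomes only and miR-217-5p in KPC-exosomes only, while miR-216a-5p, miR-216b-5p and miR-375-3p were detected on neither array. Of 28 miRNAs of clusters known from pluripotent cells (miR-290 to miR-295, miR-302 and miR-367), which are not known as markers of ductal epithelium, 23 were detected in MPDC-exosomes, at up to 135570, and 15 in KPC-exosomes, at up to 2760. The value of 2760 was that of miR-290b-5p, which was not detected in MPDC-exosomes. miR-292a-3p, at 135570 in MPDC-exosomes, had 180 in KPC-exosomes. With bounds at 3 errors, 17 of the 28 were at least 2-fold lower in KPC-exosomes after normalization and 2 higher. No link between these counts and the members was tested. Of 7 haematopoietic miRNAs, 3 were higher and 1 lower in KPC-exosomes after normalization, and 3 were higher and 3 lower without it. The part of these cell types in the signals of the members was not tested.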

How the data were processed

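miRNAs of exosomes from KPC and MPDC cells were measured on 1 one-colour (Cy3) array per group. The files deposited by the authors were written by Feature Extraction, the Agilent scanner software (10.7.1.1 in the file headers, 9.1 in the submitters' processing notes), and hold background-subtracted intensity signals with their errors. A deposited table holds log2 values for each miRNA, normalized in GeneSpring by a method not given in the sources used here. Total probe signals above 3 errors were summed per miRNA, undetected miRNAs were set to 0.1, and log2 values were quantile normalized over 1881 miRNAs and 21 control features. The result differed from the deposited log2 values by at most 1.11e-05.

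With 1 array per group no test was made. All members were named, with the brightest 3 miR-466 and miR-467 miRNAs of each array. The members, lists and alternatives were chosen with earlier results of these data known. The steps were tested on simulated data. There were 14 other settings of normalization, background, floor, detection, probe summary and fold threshold. Detection by spots well above background, and bounds at 3 errors of each miRNA, were added after seeing the data. The limit first set for undetected miRNAs, the lowest signal detected on the array, was kept for the counts that name it. Gene positions and the miR-669n sequence are from RefSeq on GRCm38.p6, and probe sequences from the array files. Python 3.11.15, numpy 2.4.6, pandas 2.3.3, R 4.3.3, limma 3.58.1 and matplotlib 3.10.9 were used.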

Additional observations from a re-analysis of the deposited data

How the results depend on the processing

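Under every alternative run 0 members were at least 2-fold higher in KPC-exosomes. For the 19 members detected in MPDC-exosomes only this was fixed in advance, since a bound was kept only where it was lower. The differences of miR-669c-3p, miR-669f-3p and miR-669p-3p could take either sign and were negative in every setting. The members had been chosen on this same contrast, so these directions support nothing further. With the lowest detected KPC-exosome signal as the limit, the median bounded difference of -2.65 became -4.57 without normalization, -4.60 with spike-in scaling, -3.03 with scaling by the 75th percentile, -2.95 with scaling by the median, -3.90 with quantiles over the miRNAs with 2 signals, -3.25 with processed signals scaled by the 75th percentile, -2.41 with the brightest probe, -4.18 over the 4 members detected on both arrays and -1.66 with normexp. The count at least 2-fold lower with bounds, 18, became 4 where detection on both arrays was required, as did the count of 23 with floors, and 9 with normexp, and was 12 to 23 in the others run. The limit of 3 errors of each member was chosen after seeing the data. With it the count was 12 and the median -2.46, and without normalization as well 23 and -3.73. Detection by spots well above background, also chosen then, gave a count of 16. The normalized difference of miR-669f-3p ran from -7.27 to -4.13. Dim members limit the bounds, since their limits in KPC-exosomes were 2.78 to 5.58. No paired analysis was possible because each group had 1 array.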
